A study of Mus musculus with 3 samples.

Results

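The genes of the actin cytoskeleton and the integrins were described across single naive CD4 T cells of the mouse. The list has 31 genes, named by their known function, and all 31 were found by symbol among the 14355 genes of the table. They fall into 4 genes for actins and thymosins, 4 for filament turnover, 5 for the Arp2/3 complex and its activator, 3 for myosin, 2 for membrane linkers, 5 for small GTPases and their regulators, and 8 for integrins and talin. Spleens and lymph nodes of C57BL/6 mice, aged 8 to 12 weeks and pooled over both sexes, gave the cells, which were sorted fresh and had no treatment. The gate took live singlets that stained for TCRb, CD4, CD5 and CD62L and not for CD44, CD25 or CD8. Cells were index-sorted into 3 plates over the whole range of surface CD5 and profiled by SORT-seq, which counts the 3′ ends of transcripts by unique molecular identifiers (UMIs). Each plate is 1 sample and 1 replicate. The labels do not say whether the plates came from separate animals, so the p-values measure spread between sums of cells of these plates, which may be technical.

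A naive T cell crawls through lymphoid tissue, stops on antigen-presenting cells and builds a contact zone with them. These steps run on actin filaments. Thymosins and profilin hold the pool of free actin, the Arp2/3 complex grows branched networks when Was switches it on, and cofilin takes filaments apart. Myosin II pulls on filaments, and ezrin and moesin tie them to the membrane. Talin links them to integrins, the adhesion receptors that work as pairs of an alpha and a beta chain. CD5 dampens T cell receptor signals, and naive cells that respond more strongly to self-ligands carry more of it.

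The plates held 24.7%, 28.8% and 46.5% of the 697 cells. Median depth was 3749, 5449 and 3952 UMIs per cell in plates 1, 2 and 3, over a range of 716 to 13486. Of the well numbers used, 76.6% occur in more than 1 plate, and a cell was identified by plate and well together. The authors' CD5 classes hold 24.96% (Low), 50.07% (Middle) and 24.96% (High) of the cells. Of 11 listed markers of naive CD4 T cells, 8 were in the table, and each was found in 62.7% to 95.7% of cells, with Cd4 at the top. Foxp3, the defining gene of regulatory T cells, had a UMI in 8.03% of cells. Of the other genes listed for them, Ikzf2 was found in 5.31%, Ctla4 in 2.01% and Il2ra in 1.87%. Cd8a and Cd8b1, the CD8 genes, had one in 1.004% and 4.16%, and any of 6 B cell markers in 10.04%, with Ms4a1 lowest at 0.574% and H2-Aa highest at 5.02%. Of genes listed for myeloid cells, Ctss was found in 40.17%, Cst3 in 19.9% and Itgam in 2.01%. Klrd1, an NK cell gene, was found in 9.04%, but Gzma and Nkg7 of that list in 0.430% and 0.143%. Lgals1, listed for memory T cells, was found in 15.8% and Cd44 in 9.47%. Cxcr3, S100a6 and Ccl5 of the memory list were found in 0.287%, 0.143% and 0%. Plate 2 stands apart on CD5. Cd5 transcripts were 2.72 and 2.75 higher (log2) in the High than in the Low class of plates 1 and 3, but 0.12 higher in plate 2. With CD5 values in plate 2 moved by 1 well number, which left 170 cells, that difference was 1.04. The Spearman correlation of the Cd5 share of UMIs with CD5 in plate 2 was 0.08 as deposited and 0.32 after the move. No label used here gives such a move, it is judged on Cd5 in these same data, and no other move is shown. It is an alternative and not a correction. Results on CD5 are therefore given with and without plate 2.

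The 31 genes held 3.08%, 3.09% and 3.13% of all UMIs in plates 1, 2 and 3 (mean 3.10%, SD 0.028, n = 3 plates). Levels are given as CPM, the UMIs of a gene per 1000000 UMIs of all genes in a plate. A transcript is counted once at its 3′ end whatever its length, so levels were not divided by length. Capture and mapping of 3′ ends can still differ between genes. Their part in differences of level between genes was not tested. Actb, Tmsb4x, Tmsb10 and Cfl1 together made up 55.05% of the UMIs of the list. From plate to plate the highest level of a gene was 1.26 times the lowest as a median over the 26 list genes with a mean of at least 100 CPM, against 1.29 over 1367 genes of that level.

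**Figure D1:**
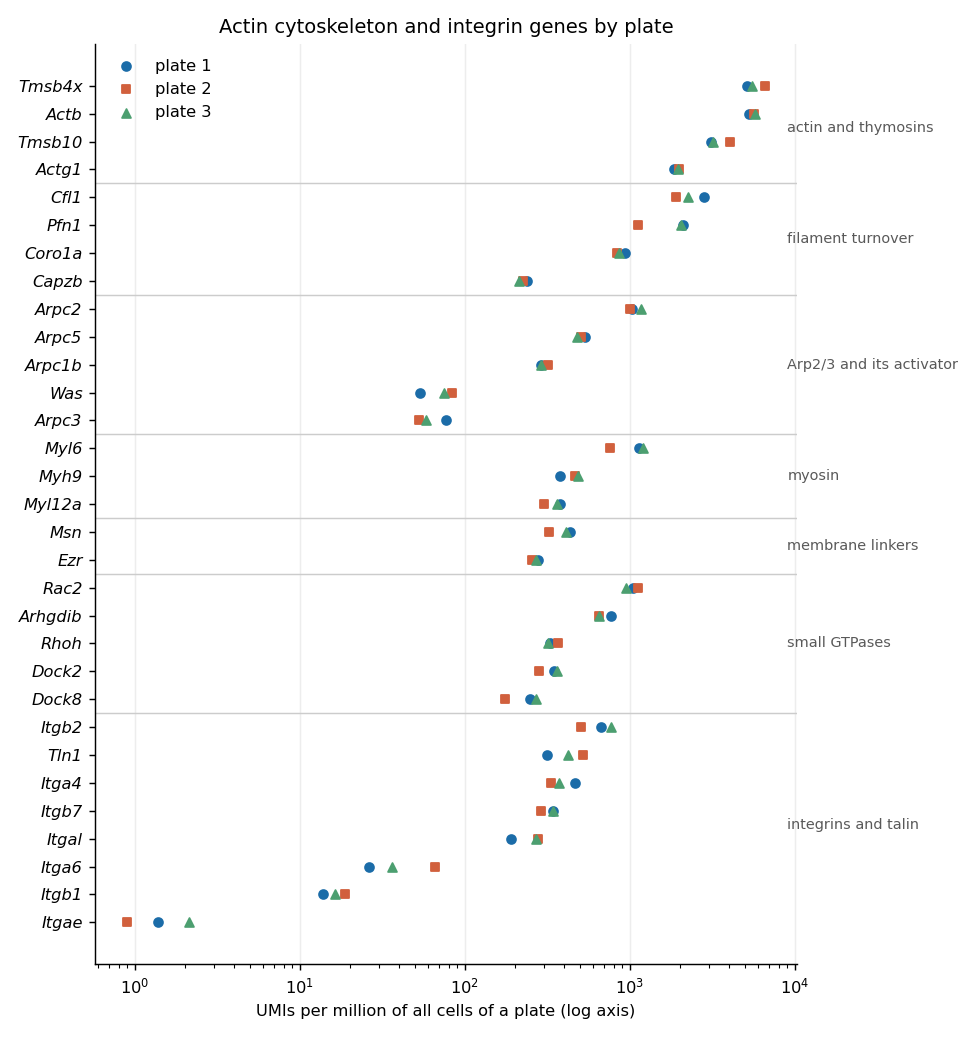
Level of each of the 31 genes in plates 1, 2 and 3 (CPM, log axis), grouped by role. Actb and Tmsb4x lie at the right end, and Itgae and Itgb1 at the left end, in every plate.

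In the GENCODE M21 annotation of GRCm38, all 31 are protein-coding genes. Actb lies on chromosome 5 (142903115 to 142906754, minus strand), Actg1 on chromosome 11 (120345690 to 120348542, minus) and Tmsb4x on chromosome X (167207093 to 167209315, minus). Rhoh lies on chromosome 5 (65861213 to 65896700, plus) and Itga4 on chromosome 2 (79255426 to 79333123, plus).

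Actb, which encodes beta-actin, stood at 5293, 5614 and 5758 CPM in plates 1, 2 and 3. Tmsb4x, which encodes the actin-sequestering peptide thymosin beta 4, stood at 5139, 6560 and 5492. The 2 genes changed places between plates, Tmsb4x being the higher in plate 2 alone, so their order was not settled. Among all genes Tmsb4x ranked 16 and Actb 17. Tmsb10, the related thymosin beta 10, had 3099, 4029 and 3206, and Actg1, the gamma-actin gene, 1850, 1985 and 1954. The ratio of Actb to Actg1 was 2.86, 2.83 and 2.95, and that of Tmsb4x to Tmsb10 was 1.66, 1.63 and 1.71. Both ratios varied less between plates than did the level of either thymosin. Every one of the 697 cells held UMIs of Actb and of Tmsb4x (95% interval from 99.5%), and 96.27% held UMIs of Actg1.

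Among the genes for filament turnover, Cfl1, which encodes the severing protein cofilin, had 2821, 1906 and 2262 CPM. Pfn1, the gene of the monomer-loading protein profilin, had 2105, 1126 and 2035. Both were lowest in plate 2, and the plates cover 1.87-fold for Pfn1. Coro1a, a coronin of blood cells, had a mean of 878 ± 49.7, and Capzb, a capping protein subunit, 225.25 ± 12.7 (SD, n = 3 plates). Of the Arp2/3 subunits, Arpc2 led with 1062 ± 88.2, ahead of Arpc5 with 506 ± 28.4 and Arpc1b with 299.99 ± 16.29, and these 3 did not overlap between plates. Arpc3 (62.8 ± 12.7) and Was (70.7 ± 15.3), the Wiskott-Aldrich activator of the complex, did overlap. UMIs of subunits of 1 complex thus ran from 62.8 to 1062 CPM.

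Myl6, the essential light chain of myosin II, had 1031 ± 241.32, Myh9, its heavy chain, 440.4 ± 55.6, and Myl12a, a regulatory light chain, 344.8 ± 38.9. The linkers Msn (moesin) and Ezr (ezrin) had 388 ± 56.8 and 267.03 ± 11.27. Among the genes of small GTPases and their regulators, Rac2, a GTPase of blood cells, had 1034 ± 87.6, and Arhgdib, a GDP dissociation inhibitor, 687 ± 67.5. Rhoh, which encodes a GTPase that does not hydrolyse GTP and is needed for T cell receptor signalling, had 329.15, 367.5 and 320.6. The exchange factors Dock2 and Dock8 had 330.31 ± 42.7 and 231.7 ± 50.12.

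The integrin genes differed widely in level. Itgb2 and Itgal, the chains of LFA-1, which binds ICAM-1, had 649.6 ± 133.96 and 245.6 ± 47.17 CPM. Itga4 and Itgb7, the chains of the gut-homing receptor for MAdCAM-1, had 388 ± 68.8 and 324.6 ± 29.12. Itgb1, the other partner of the Itga4 chain, had only 13.8, 18.9 and 16.4 and was found in 36 cells (5.16%, 95% interval 3.64 to 7.08). The ratio of Itgb7 to Itgb1 was 24.7, 15.4 and 20.9. Itga6, which pairs with Itgb1 on laminin, had 26.16, 65.56 and 36.32. Itgae, whose product pairs with that of Itgb7 on tissue-resident cells, had 5 UMIs in 5 cells (0.717%, 95% interval 0.233 to 1.67), 1, 1 and 3 in the plates. Tln1, the gene of talin, had 315.4, 519.5 and 418.9. Itgb1, Itga6 and Itgae thus stood below the other integrin genes in all 3 plates.

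High against Low CD5 class asks whether cells with stronger signals from self hold other amounts of these transcripts. It tested 4813 genes in edgeR's quasi-likelihood fit with the plate as a block, and 9 passed a Benjamini-Hochberg adjusted p of 0.05 (0.187%), 8 higher and 1 lower (0.0208%). Of the 31 listed genes, 29 were abundant enough to test, and 0 passed in either direction. Itgb1 and Itgae were not tested. The 29 had 11 positive and 18 negative differences, with a median log2 of -0.04 against 0.0025 over all genes tested. At an unadjusted p under 0.05 stood 2 of the 29, Tmsb4x and Rhoh, where all genes gave 6.17%. DESeq2's Wald test called 0 genes in all, with 3.05% at an unadjusted p under 0.05.

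Tmsb4x had 4676, 6306 and 5128 CPM in the Low cells of plates 1, 2 and 3, and 5737, 7481 and 5787 in the High cells. Each plate was higher in its High class, by 0.29, 0.25 and 0.17 (log2), while the groups overlapped because plate 2 was high throughout. The fitted difference was 0.24 (SE 0.062, 95% interval 0.11 to 0.37, adjusted p = 0.121), so it did not pass. It lay between 0.20 and 0.26 in the 11 other settings tried. With the next-well CD5 values in plate 2 it was 0.25 with an adjusted p of 0.0454, past the threshold, and without plate 2 it was 0.25 (0.0572). Over the cells of a plate, brought to equal depth, the Spearman correlation of Tmsb4x with CD5 was 0.28, 0.12 and 0.15 (72.09%, 87.6% and 79.32% of the cells of plates 1, 2 and 3).

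Rhoh went the other way in 2 plates. It had 405.9, 351.4 and 466.2 CPM in the Low cells and 187.11, 393.4 and 172.5 in the High cells. The High cells of plates 1 and 3 were below every Low value, and those of plate 2 were not. The log2 differences were -1.12, 0.16 and -1.43, and the fitted value was -0.74 (SE 0.22, 95% interval -1.18 to -0.30, adjusted p = 0.305). Plate 2, whose Cd5 transcripts did not follow its CD5 values, was also the only plate where Rhoh was not lower. Without plate 2 the fitted value was -1.27 (SE 0.25, adjusted p = 0.00201), past the threshold. Tmsb4x and Rhoh had been picked from earlier results of these data, so their p-values are not independent of that choice. With the next-well values, Rhoh in plate 2 went from 464.6 in Low to 326.14 in High cells, and the fit gave -1.0 (adjusted p = 0.0102). Without plate 1 or 3 it was -0.61 (0.872) and -0.41 (0.901). Cells with a Rhoh UMI made up 52.9% of Low cells (95% interval 45.2 to 60.5), 52.4% of Middle cells (47.05 to 57.8) and 42.5% of High cells (35.08 to 50.24).

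**Figure D2:**
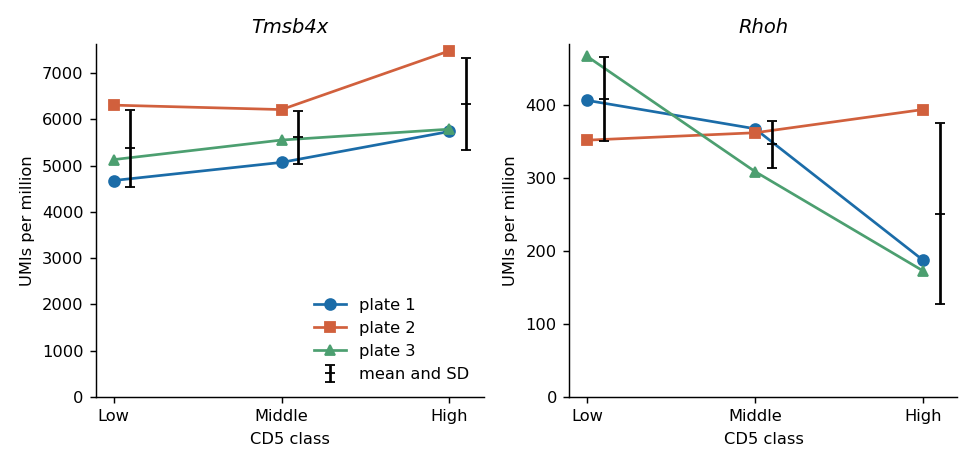
Tmsb4x and Rhoh (CPM) in the Low, Middle and High CD5 class of each plate, with the mean and SD of the 3 plates in black. Tmsb4x was higher in the High than in the Low class of every plate, and Rhoh was lower in plates 1 and 3 only.

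Depth moved with the class in part. Median UMIs per cell were 4200, 4987 and 4604 in the Low class and 2527, 5401 and 3688 in the High class of plates 1, 2 and 3. Among cells brought to 2120 UMIs each, Tmsb4x had a difference of 0.26 (adjusted p = 0.365) and Rhoh -0.56 (0.780), with fewer cells and counts in that fit. The summed markers of regulatory T cells had 14.5 to 107.8 CPM in the Low class of the 3 plates and 35.4 to 135.7 in the High class. Their part in these values was not tested. The gate had left out CD25-positive cells.

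The 4 listed genes next in p were Arhgdib (-0.23, SE 0.15), Tln1 (-0.26, SE 0.17), Rac2 (-0.18, SE 0.12) and Arpc1b (0.29, SE 0.20), with adjusted p of 0.911 or 0.912. Rac2 was lower in the High class of 3 of 3 plates. Arpc1b was higher in 3 of 3, with 267.5 to 304.4 CPM in Low and 328.09 to 369.26 in High cells, which do not overlap. Arhgdib and Tln1 were lower in 2 of 3. Actb differed by -0.02 (95% interval -0.15 to 0.10) and Actg1 by -0.09 (-0.28 to 0.10). For 20 of the 29 genes the 95% interval lay within a 1.5-fold change either way, and for 27 within a 2-fold change. The exceptions to the latter were Rhoh and Itga6, whose interval ran from -1.45 to 0.50.

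**Figure D3:**
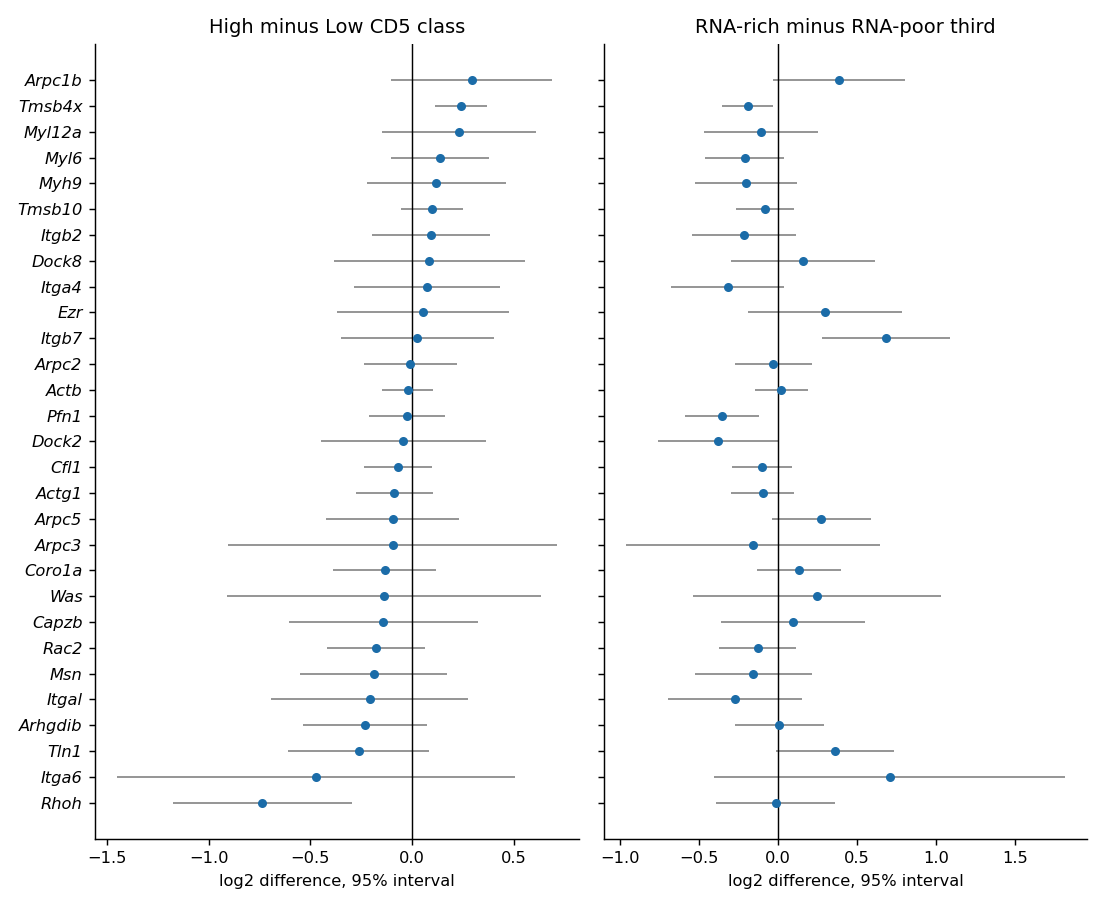
Fitted log2 differences with 95% intervals for the 29 tested genes, High minus Low CD5 class at left and RNA-rich minus RNA-poor cells at right, in 1 order of genes. The intervals of Tmsb4x and Rhoh at left, and of Itgb7, Pfn1 and Tmsb4x at right, leave out 0, but none of these passed after adjustment over all genes.

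As a slope on log2 CD5 over 4 bins of cells per plate, 6 of 5019 genes passed (0.12%), and 0 of the 29 listed genes did. At an unadjusted p under 0.05 stood 2 of them, where 4.84% of all genes did. Rhoh had -0.25 per doubling of CD5 (SE 0.081, adjusted p = 0.784), and Tmsb4x 0.083 (SE 0.030, adjusted p = 0.856). Without plate 2, Rhoh had -0.39 (adjusted p = 0.0368). Next came Tln1 (-0.12), Rac2 (-0.065), Arhgdib (-0.078) and Itgal (-0.11), each with an adjusted p of 1.0. This slope and the class difference rest on the same cells.

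Other genes of the pathway were taken from a list of 98, of which 90 were in the table. In the class comparison 72 of them were tested and 0 passed, with 35 positive and 37 negative. The 4 of smallest p were Zyx (zyxin, a protein of adhesion sites, -1.06), Actn1 (the crosslinker alpha-actinin 1, -0.37), Arhgef1 (an exchange factor, 0.28) and Nf2 (merlin, a relative of ezrin, 1.49), all with adjusted p of 0.625 or more. For the slope 73 were tested and 0 passed, with Actn1 (-0.17), Zyx (-0.34), Stk10 (a kinase of the ezrin family proteins, -0.17) and Arpc4 (an Arp2/3 subunit, -0.16) the 4 of smallest p.

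Cells of a plate were next split by total UMIs into RNA-poor, middle and RNA-rich groups of equal size, to ask whether the list scales with the RNA of a cell. Median totals were 1621, 2411 and 2024 UMIs in the RNA-poor and 6651, 8639 and 6614 in the RNA-rich groups of plates 1, 2 and 3. A total of UMIs reflects both the RNA of a cell and how much of it was captured. How much each adds to these totals was not tested. In an alternative ranking by UMIs per spike-in count, 38 of 5819 genes passed, and 0 of the 29 listed genes did. Actb rose from 10.7 UMIs per RNA-poor cell through 24.5 to 43.1 per RNA-rich cell, and Tmsb4x from 12.4 through 25.1 to 43.3. Such a rise follows from splitting cells by total UMIs and is no result by itself. In CPM, Actb differed by 0.02 (log2, 95% interval -0.15 to 0.19). The list as a whole took 3.18% ± 0.074 of UMIs in RNA-poor, 3.13% ± 0.104 in middle and 3.07% ± 0.019 in RNA-rich groups (SD, n = 3 plates).

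In that comparison 40 of 5559 genes passed (0.72%; lower, 0.522%), and 0 of the 29 listed genes did. At an unadjusted p under 0.05 stood 3 of them, where 9.1% of all genes did. Itgb7 was the listed gene of smallest p. It had 181.97, 218.9 and 245.04 CPM in RNA-poor and 380.5, 337.13 and 365.32 in RNA-rich cells of plates 1, 2 and 3, which do not overlap. The fitted difference was 0.68 (SE 0.20, 95% interval 0.28 to 1.09, adjusted p = 0.137). Among genes with a mean of at least 50 counts alone, Itgb7 passed (adjusted p = 0.0409). Pfn1 had -0.35 (SE 0.12, adjusted p = 0.220), with 3021, 1101 and 2168 in RNA-poor and 1858, 1058 and 1927 in RNA-rich cells, so most of its difference lay in plate 1. Without plate 1 it was -0.12. Tmsb4x had -0.19 (SE 0.080, adjusted p = 0.437) and was lower in the RNA-rich cells of 3 of 3 plates. Dock2 (-0.38), Tln1 (0.36) and Arpc1b (0.38) came next, with adjusted p of 0.552 to 0.624, and none of these 3 moved the same way in all plates. Rhoh differed by -0.01 (SE 0.18).

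Of the 74 other pathway genes tested there, 1 passed as higher, where 0.198% of all genes did. Myo9b, an unconventional myosin, was higher in RNA-rich cells (2.21, SE 0.55, adjusted p = 0.0468), with 53.5, 12.5 and 4.80 CPM in RNA-poor and 118.9, 83.8 and 65.0 in RNA-rich groups. Its RNA-poor values rest on few UMIs and lie near the floor. Myo9b passed in 3 of the 10 other settings that gave an adjusted p, and not without plate 2 (0.419) or plate 3 (0.546). Gmfg, which prunes Arp2/3 branches (-0.78), Vav1, a Rac exchange factor (1.51), and Evl, which lengthens filaments (1.12), came next and did not pass.

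How the genes vary together from cell to cell was described in 557 cells thinned at random to 2120 UMIs. Of the list, 24 genes had a mean of at least 0.5 UMIs there and were paired with each other. The median Spearman correlation of a pair was 0.026, 0.017 and 0.030 in plates 1, 2 and 3, against 0.0020, 0.00049 and 0.0045 over the 120295 pairs of all 491 such genes. Pairs with a positive value made up 61.6%, 57.97% and 67.03%, against 50.9%, 50.2% and 52.6% of all pairs. These correlations are weak, and cells of a plate share library and sequencing. The listed pairs and all pairs were not matched on level, and a correlation of counts can depend on level. Actb and Tmsb4x had means of 11.8 and 12.4 UMIs per thinned cell, far above the limit of 0.5. The part of level in these values, and in the ranking of pairs below, was not tested.

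Actb stood in the strongest pairs. Its correlation with Actg1 was 0.16, 0.29 and 0.26 in plates 1, 2 and 3, with Cfl1 0.11, 0.24 and 0.23, and with Pfn1 0.20, 0.14 and 0.31. Actb with Pfn1 was the 1 pair (0.362% of the pairs) above the 95% quantile of all pairs in every plate, where 0.579% of all pairs were. At the other end stood Actb with Itga4, at -0.25, -0.22 and -0.27. It was the 1 pair below the 5% quantile in every plate, where 0.0748% of all pairs were. Itga4 with Itgb7, the gene of its partner chain, had 0.12, -0.01 and 0.03.

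**Figure D4:**
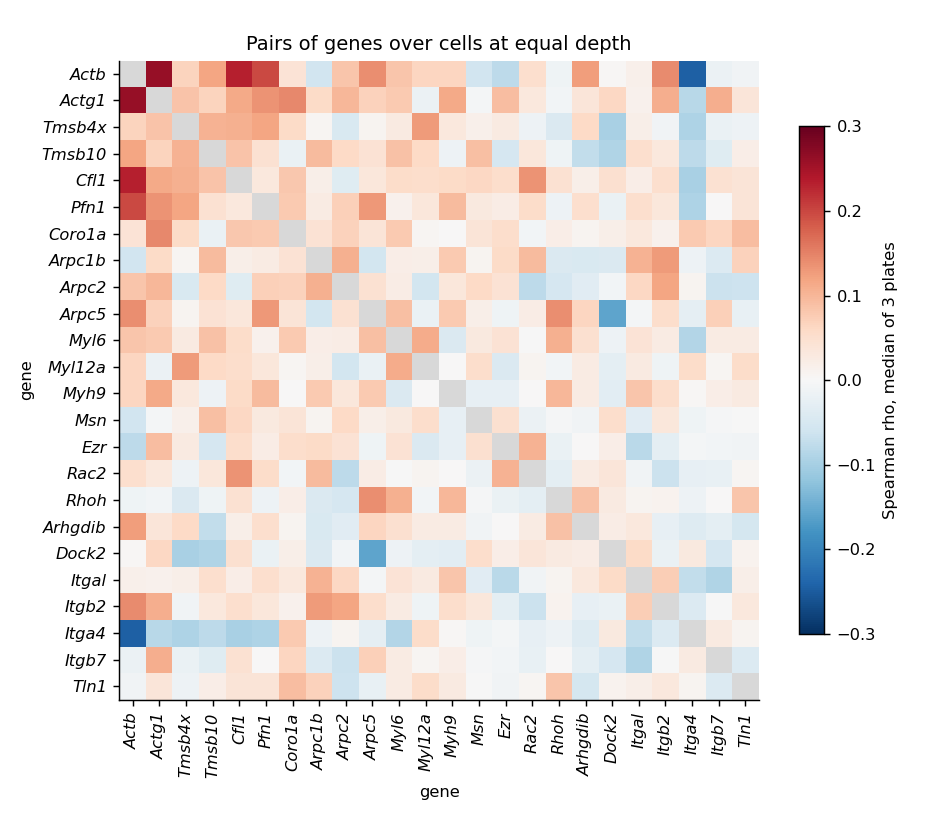
Spearman correlation of each pair of the 24 abundant genes over cells thinned to 2120 UMIs, as the median of the 3 plates (red positive, blue negative, diagonal grey). The row of Actb holds the strongest values, positive with Actg1, Cfl1 and Pfn1 and negative with Itga4.

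By the summed counts of the list, the 5 genes outside it that varied most like it were Lcp1, Actr3, Cnn2, Ptprcap and Cd52, among 467 genes. Lcp1 encodes the filament bundler L-plastin, Actr3 a core subunit of Arp2/3 and Cnn2 the actin-binding protein calponin 2. Their correlations were 0.24, 0.11 and 0.27 for Lcp1, 0.27, 0.23 and 0.18 for Actr3 and 0.32, 0.21 and 0.14 for Cnn2. Ptprcap, a partner of CD45, and Cd52, a small surface glycoprotein, had medians of 0.21 and 0.19. The median over all 467 genes was 0.0055. Not every actin-binding gene went with the list. The crosslinker gene Actn1 ranked 462, with -0.09, -0.21 and -0.19 in plates 1, 2 and 3.

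Because these pairs centred on Actb, cells of each plate were ranked by their thinned Actb counts and split into Actb-poor, middle and Actb-rich groups of equal size. This comparison was chosen after the correlations had been seen, so its p-values are not independent of them. Mean Actb counts were 5.76, 6.37 and 6.42 UMIs per Actb-poor cell and 17.7, 18.0 and 18.6 per Actb-rich cell. Many cells lie near the limits, with 32, 41 and 55 cells within 1 UMI of the lower limit. Actb was left out of the table, and CPM are taken over the other thinned UMIs. Of 2258 genes tested, 21 passed (0.93%), 7 higher (0.31%) and 14 lower (0.62%) in Actb-rich cells, and 9.08% had an unadjusted p under 0.05. Of the 26 listed genes tested, Actg1 and Pfn1 rose and Itga4 fell, and the list's median was 0.11 against -0.02 over all genes.

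Actg1 had 1532, 1379 and 1513 CPM in Actb-poor cells, 2023, 1977 and 2305 in middle cells and 2436, 2354 and 2391 in Actb-rich cells. The poor and rich groups do not overlap, and the plates lay close to each other in both. The difference was 0.66 (log2, SE 0.10, adjusted p = 9.11e-07), a 1.58-fold rise. Of the 471 words of 30 bases in the last 500 bases of the Actb transcript, 0 occur in those of Actg1. Near matches and reads outside this window were not examined. Pfn1 had 2050, 978 and 1705 in Actb-poor and 2634, 1345 and 2564 in Actb-rich cells, higher in 3 of 3 plates though the groups overlap (0.44, SE 0.10, adjusted p = 0.00527). Cfl1 (0.32, SE 0.095, adjusted p = 0.0759) and Itgb2 (0.49, SE 0.17, adjusted p = 0.161) were higher in 3 of 3 plates and did not pass. Arpc5 (0.44, SE 0.19, adjusted p = 0.446) was higher in 2 of 3. Tmsb4x, as abundant as Actb, differed by 0.06 (95% interval -0.08 to 0.20), and Rhoh by 0.12 (-0.34 to 0.57).

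Itga4 had 597, 489 and 534 CPM in Actb-poor cells, 450.9, 273.26 and 336.4 in middle cells and 220.4, 246.07 and 184.75 in Actb-rich cells. The values fell from group to group in each plate, and the poor and rich groups do not overlap. The difference was -1.36 (log2, SE 0.23, 95% interval -1.81 to -0.90, adjusted p = 1.6e-05). Cells with an Itga4 UMI made up 56.7% of Actb-poor cells (95% interval 49.26 to 63.9), 40.9% of middle cells and 29.9% of Actb-rich cells (23.4 to 37.06). Itgb7, the partner chain, differed by 0.12 (-0.35 to 0.58), and Itgal by 0.07 (-0.47 to 0.60). Itga4 kept an adjusted p under 0.05 in 11 of the 12 other settings in which it was tested, and Actg1 in 12 of 13. Pfn1 did so in 7 of 13, with an adjusted p of up to 0.953. Within the Middle CD5 class alone Itga4 had -1.07 (adjusted p = 0.208). Itga4 overlaps Cerkl on the other strand, a gene with 3 UMIs in all.

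Of 63 other pathway genes tested on Actb, 3 rose and 0 fell. Lcp1 had 0.70 (SE 0.14, adjusted p = 0.000316), Stk10 0.99 (SE 0.20, adjusted p = 0.000443) and Actr3 0.82 (SE 0.19, adjusted p = 0.00449). Each was higher in 3 of 3 plates. Cnn2 also rose (0.68, SE 0.19, adjusted p = 0.0368). Flna, the crosslinker filamin A (0.66, adjusted p = 0.0561), and Actn1 (-0.63, 0.0725) had the next smallest p and did not pass. With another random thinning of the same cells Lcp1 had 0.50 (adjusted p = 0.0341), Cnn2 0.61 (0.0780), Stk10 0.42 (0.485) and Actr3 0.21 (0.831), so the last 2 rest on the draw. Over 13 other settings Lcp1 passed in 8, Stk10 in 6, Actr3 in 5 and Cnn2 in 3. Without plate 2, Actg1 and Itga4 alone passed of all genes. Without plate 1, Stk10, Actr3 and Cnn2 did not pass, and without plate 3 Pfn1 did not.

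**Figure D5:**
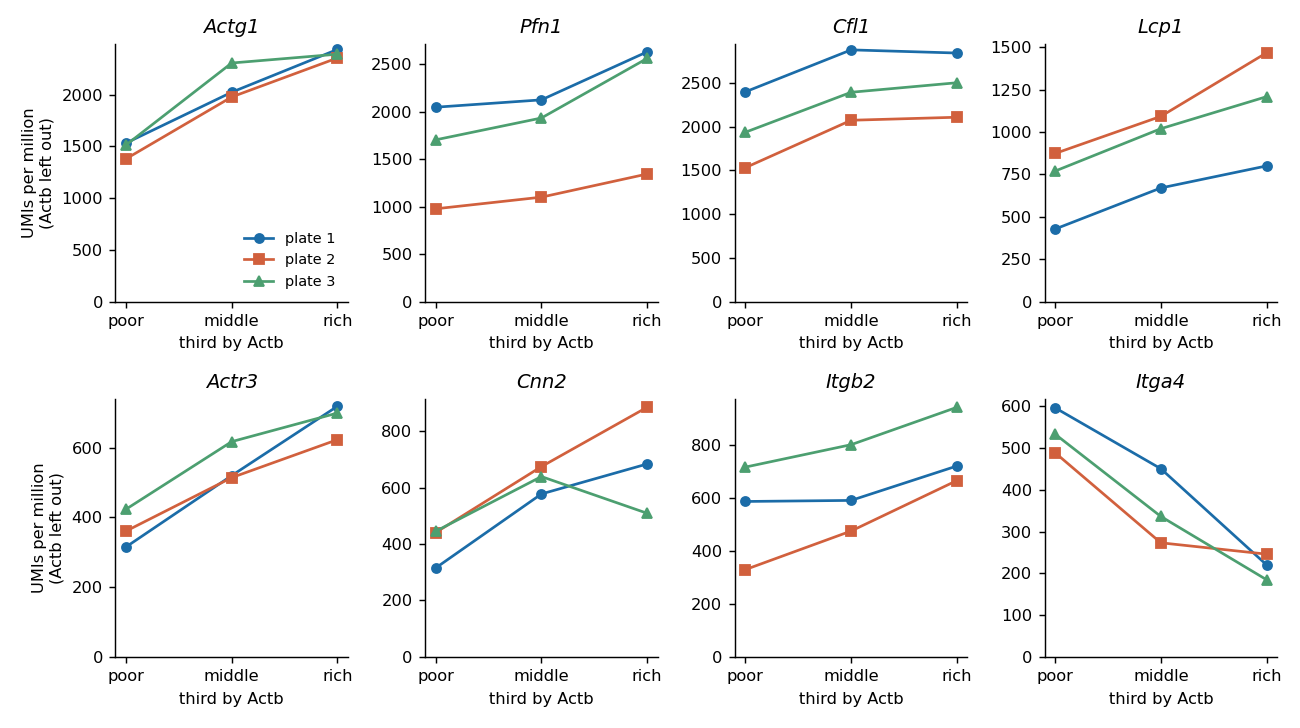
CPM (Actb left out) of 8 genes in Actb-poor, middle and Actb-rich cells of plates 1, 2 and 3. Actg1, Pfn1, Cfl1, Lcp1, Actr3, Cnn2 and Itgb2 were higher in the rich than in the poor group of every plate, of which Cfl1 and Itgb2 did not pass the test, and Itga4 was lower.

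The Actb groups were also compared on depth and other cells' markers. Median totals before thinning were 4726, 6051 and 4646 UMIs in Actb-poor and 5236, 5140 and 4957 in Actb-rich cells. Median CD5 was 41199, 49687 and 37487 against 43455, 52091 and 45210. Mitochondrial transcripts took 15.8%, 13.25% and 15.29% against 16.4%, 12.0% and 14.1%. The Kcnq1ot1 group, transcripts that vary together from cell to cell, took 2.47%, 1.66% and 2.15% against 1.64%, 1.06% and 2.1%. Without the mitochondrial, Rn45s and Kcnq1ot1-group counts, Itga4 had -1.30 and Actg1 0.43, and both passed. Markers of regulatory T cells (4 of 4 found) summed to 11.23 to 164.5 CPM in Actb-poor and 0 to 38.8 in Actb-rich cells. B cell markers (6 of 6 found) summed to 7.99 to 285.21 and 0 to 72.14, and those of memory T cells (5 of 6) to 55.96 to 101.08 and 69.03 to 116.5. Myeloid markers (3 of 7 found, Ctss leading) summed to 268.8 to 303.24 in Actb-poor and 144.28 to 268.4 in Actb-rich cells, ranges that all but meet. NK markers (3 of 5) summed to 44.9 to 76.8 and 0 to 46.02. The part of these markers in the Itga4 and other differences was not tested.

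Promoters are shown for the 3 listed genes that passed on Actb, Actg1 and Pfn1, which were higher, and Itga4, which was lower. Each is 300 bases, from 250 before to 50 after the start of the gene in RefSeq on build GRCm38.p6, read along the gene's strand, with the CArG box in capitals. The CArG box is the element bound by serum response factor, a known regulator of actin genes. The windows are chr11:120348446-120348745 (minus strand) for Actg1, chr11:70654601-70654900 (minus) for Pfn1 and chr2:79255176-79255475 (plus) for Itga4.
Actg1: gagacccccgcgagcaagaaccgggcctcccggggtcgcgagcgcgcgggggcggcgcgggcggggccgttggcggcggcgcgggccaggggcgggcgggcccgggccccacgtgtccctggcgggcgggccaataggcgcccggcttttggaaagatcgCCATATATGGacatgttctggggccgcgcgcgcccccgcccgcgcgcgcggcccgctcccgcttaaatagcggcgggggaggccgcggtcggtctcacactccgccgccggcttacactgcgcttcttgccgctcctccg
Pfn1: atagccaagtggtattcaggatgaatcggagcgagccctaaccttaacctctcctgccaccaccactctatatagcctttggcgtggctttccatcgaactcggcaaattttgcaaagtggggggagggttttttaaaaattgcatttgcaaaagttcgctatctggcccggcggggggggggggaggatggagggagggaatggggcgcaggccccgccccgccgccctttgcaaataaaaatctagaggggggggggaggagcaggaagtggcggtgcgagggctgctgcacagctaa
Itga4: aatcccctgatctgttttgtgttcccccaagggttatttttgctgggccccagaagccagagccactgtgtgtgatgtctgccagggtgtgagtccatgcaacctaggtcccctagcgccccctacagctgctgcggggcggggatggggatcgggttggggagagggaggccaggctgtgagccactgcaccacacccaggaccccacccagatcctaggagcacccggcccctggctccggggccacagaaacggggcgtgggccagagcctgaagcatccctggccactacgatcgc
The box lies 90 bases before the start in Actg1, and these letters are not in the windows of Pfn1 and Itga4. Of the other genes above that rose with Actb, Cnn2 held a box 56 bases before its start, and Lcp1, Stk10 and Actr3 held none. Of the 31 listed genes, 25 had a promoter entry, and 2 of these held a box on either strand, Actg1 and Myl6 (1 of its 2 windows, 50 bases before the start). Actb itself had no entry, nor had Itgal, Itgb2, Itga6, Rac2 and Itgae, so their promoters were not searched. Myl6 did not pass on Actb (0.25, SE 0.13, adjusted p = 0.545). Of 27025 genes with an entry, 1.81% held one. A match in a window is a description of the letters and shows no binding.

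Spread between cells at equal depth was described by the variance-to-mean ratio, set against the 100 genes of nearest mean. Rhoh had 1.93, 2.21 and 2.24 in plates 1, 2 and 3, at percentiles 79, 87 and 97. Actb had 2.63, 2.63 and 2.55 (percentiles 82, 84 and 89), Actg1 2.91, 2.27 and 2.46 (93, 84 and 91), Pfn1 3.39, 2.25 and 2.54 (94, 79 and 93) and Itga4 2.25, 2.05 and 1.79 (86, 79 and 85). These 5 stayed at percentile 79 or above in every plate. Arpc1b, Coro1a, Arhgdib, Myh9 and Itgb7 stayed at percentile 36 or below in every plate. Both limits were read from these values, and the share of all genes that stay past them was not counted. Actb ranked 17 among all genes by level, so most of its 100 nearest genes had a lower mean. Tln1 had 3.35 in plate 2 alone, against 1.77 and 1.66. Rhoh was found in 50.07% of cells and Myl12a, with a like mean level, in 62.7%.

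Some counts cannot be given to 1 gene alone. The last 500 bases of the Tmsb10 transcript share 73.9% of their words of 30 bases with other genes, mainly Gm9844, which is not in the table. Actb shares 27.2%, mainly with Lrrc58, which had 567 UMIs against 18181 for Actb. Cfl1 (13.6%), Was (19.11%) and Dock8 (10.2%) are the other 3 of 5 listed genes above 10%, and 22 share none. Myl12a overlaps Myl12b on the same strand (857 UMIs), and reads there could be split between them. No source used here states whether counting used strand.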

How the data were processed

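Naive CD4 T cells in 3 plates were measured by SORT-seq. Reads were mapped with BWA to mm10, per the submitters' processing notes, and further steps of counting are not given in the sources used here. This gene table, as deposited, holds expected counts, which are UMI counts the authors corrected for collisions and did not scale between cells. CD5 is deposited as a cytometry signal for every cell, per the file headers, and beside it stands the authors' CD5 class (Low cells lie under 26773 and High cells above 69676). The primer sheet was not used.

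The gene list and its tests were chosen with earlier results of these data known. Counts were summed by plate and class, by plate and 4 CD5 bins, or by plate and group of RNA or Actb, and rounded to whole numbers. In R 4.3.3, edgeR 4.0.16 gave two-sided quasi-likelihood tests after filterByExpr and TMM, with plate as a block and Benjamini-Hochberg adjustment over all genes at 0.05. DESeq2 1.42.0 was an alternative. The 9, 12, 9 and 9 sums shared dispersion estimates, and the class fit had 4 residual and 37.9 prior degrees of freedom. The Actb fit had 4 residual and 192.9 prior, so its p-values rest mostly on spread shared over genes. Plates are paired because classes of a plate share library and sequencing, and deviations from class means over 191 genes correlated between sums of a plate at 0.462 to 0.817. Spike-ins held 19.6% of all counts and were left out of the counts of every fit. They served only to rank cells in an alternative of the RNA split. Thinning to 2120 UMIs, the 20% quantile of totals, kept 557 cells. Genes named are listed genes past the threshold, then up to 6 by smallest p with Tmsb4x and Rhoh always, and up to 4 other pathway genes. On simulated High and Low sums of 4576 genes, edgeR called 33% of 106 genes changed 2-fold, 82.4% of 85 changed 4-fold and 1 of 4385 unchanged genes. The simulation gave every gene a dispersion of 0.05 and no difference between plates, so these rates need not hold for the real sums. Intervals of shares are exact binomial at 95% and cover counting error only. Promoters come from RefSeq (GRCm38.p6). Python 3.11.15, numpy 2.4.6, pandas 2.3.3, scipy 1.17.1 and matplotlib 3.10.9 were used.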

Additional observations from a re-analysis of the deposited data

How the results depend on the processing

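Alternatives on the Actb split were chosen after seeing the data. The cause of each change below was not tested unless stated. Of 31 listed genes, 0 passed between the CD5 classes in 9 of 11 alternatives, DESeq2 scaling and Wald test, both filters and thinning included. The exceptions were 1 gene without replicate 2 (Rhoh; leaving out each plate gave 0 to 1) and 2 with plate 2's CD5 values moved by 1 well (Tmsb4x and Rhoh). The CD5 slope gave 0 in 10 of 11 and 1 without replicate 2 (Rhoh; 0 to 1 over the plates). The RNA split gave 0 in 10 of 11 and 1, Itgb7, with a mean of at least 50 counts, where fewer genes were tested. Over all genes the classes gave 9 calls, against 0 by the Wald test, 0 without the plate block, 16 without a filter, 4 after thinning, 25 with next-well values, 1 without the top Kcnq1ot1 cell and 0 to 20 leaving out a plate. The slope gave 6, against 3 by the Wald test, 0 without the block, 10 unfiltered, 16 with next-well values, 1 without the top cell and 0 to 14 by plate. The RNA split gave 40, against 10 without the block, 18 after thinning and 14 to 23 by plate. The replicate block changed no call on a listed gene in these 3 comparisons. Against 21 genes, the Actb split gave 12 without a filter, 9 by the DESeq2 Wald test, 1 (Itga4) without the replicate block, 8 with 2 groups a plate, 33 with another thinning (13 of them shared), 11 at the median depth, 12 without mitochondrial, Rn45s and Kcnq1ot1-group counts, 2 in the Middle class and 2 to 19 leaving out each plate. The list's share of UMIs was 3.77% with mitochondrial and Rn45s counts left out of the total. The mean over plates of the median pair correlation was 0.024, against 0.046 without thinning and 0.033 at the median depth. Signs changed for Arhgdib between classes without replicate 1 (0.0079; -0.49 without replicate 3), for Tln1 after thinning (0.0065) and on the slope with next-well values (0.022), for Rhoh on RNA without a filter (0.081), without replicate 1 (0.14; -0.17 without replicate 2), after thinning (0.14) and per spike-in count (0.071), and for Grk4 (0.12) and A630089N07Rik (0.057) in the Middle class. None of these passed in either direction there. Itgb1 and Itgae had too few counts to test.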

Other observations

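Outside the cytoskeletal genes, the split by Actb, chosen after the correlations had been seen, moved 14 other genes past the threshold in edgeR's quasi-likelihood fit with Benjamini-Hochberg adjustment. Crlf3, which encodes a cytokine receptor-like factor, was lower in Actb-rich cells in 3 of 3 plates, with 777, 585 and 616 CPM in Actb-poor and 348.05, 262.5 and 324.7 in Actb-rich cells (log2 -1.11, SE 0.20, adjusted p = 6.89e-05). It passed in 9 of 13 other settings. Also lower were Wdr92 (-0.45), the tetraspanin gene Cd53 (-0.37), Srgn, which encodes the granule proteoglycan serglycin (-0.56), Emb, the gene of the membrane protein embigin (-0.72), Sepp1, a secreted selenoprotein (-0.87), Osbpl9 (-1.67) and Cep97 (-1.33). Sf1, a splicing factor, was higher (0.73). Of these, Wdr92 passed in 8 of 13 other settings and the other 7 in 2 to 4.

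Kcnq1ot1, Gm17821, Grk4, A630089N07Rik and Vmn2r55, transcripts that vary together from cell to cell, were lower in Actb-rich cells, with log2 differences of -0.37 to -0.50. The difference of Kcnq1ot1 was -0.55, -0.66 and 0.0020 in plates 1, 2 and 3, so it was not lower in plate 3. Within the Middle CD5 class Grk4 and A630089N07Rik changed sign.

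Of all 467 genes outside the list with enough counts, Crlf3, mt-Rnr2 and Malat1 had the lowest correlation with the summed counts of the list over cells at equal depth, with medians of -0.23 each over the 3 plates. All cells were thinned to 1 total, so a gene that takes many UMIs leaves fewer for others.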
